A study of Rattus norvegicus with 9 samples.

Results

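Gene expression in blood was compared directly between 2 rat models of ischemic stroke that differed in what the animals had received before the stroke. All 3 arrays of the QDBS group were set against all 3 arrays of the YDBS group, 6 of the 9 arrays of the series, each array with the RNA of 1 rat. Every gene with exactly 1 symbol in the platform annotation entered, through its brightest transcript cluster, which gave 18166 genes from 18511 such clusters among 30347 deposited. QDBS and YDBS stand for Qi deficiency and Yin deficiency blood stasis, syndromes of traditional Chinese medicine that the models are meant to represent. All rats were male Sprague-Dawley. QDBS rats swam to exhaustion daily over 21 days, with no drug. YDBS rats received intramuscular hydrocortisone, a glucocorticoid, at 45 mg/kg per day over 13 days and then subcutaneous epinephrine at 0.36 mg/kg over 1 day, with no swimming. Both groups then underwent middle cerebral artery occlusion, and blood was taken at 24 h of reperfusion from the abdominal aorta. The 3 control rats had sham surgery and neither pretreatment; a group with stroke alone or with pretreatment alone was not analysed here. The comparison therefore asks how blood RNA differed after the same stroke between exercise-exhausted and hormone-injected rats, and the swimming, each hormone and their order cannot be told apart within it.

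Blood RNA comes from several kinds of cells. Neutrophils and monocytes carry receptors for bacterial products, chemokines and interleukin-1, leave the vessel by way of selectins and integrins, and are the first leukocytes to enter tissue after ischemia. T cells and B cells are the other large leukocyte populations, and B cells and monocytes present peptides on MHC class II molecules, called RT1-B and RT1-D in the rat. Glucocorticoids and epinephrine are both known to raise the number of neutrophils in blood, and glucocorticoids to lower that of lymphocytes for a time. The effect of either pretreatment on cell numbers was not tested here. In whole blood, fewer cells of a type and less RNA per cell cannot be told apart.

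The arrays were measured in log2 units after Robust Multi-chip Average (RMA). The labels give no batch. Over all genes tested, QDBS arrays correlated at r = 0.989 to 0.993 with each other, YDBS arrays at 0.989 to 0.991, and QDBS with YDBS arrays at 0.977 to 0.991. QDBS replicate 3 was the QDBS array nearest to YDBS (0.987 to 0.991, against 0.977 to 0.983 for replicate 2), so the groups did not separate by overall correlation. Control arrays varied more, with a median SD per gene of 0.208 against 0.132 in QDBS and 0.123 in YDBS, and 1 of them stood apart: control replicate 2 correlated at 0.963 and 0.965 with the other control arrays, which correlated at 0.989 with each other, and had the lowest array weight (0.190, against 0.728 to 2.01 for the others). Csf3r of neutrophils and Cd3d of T cells lay above the upper quartile of signals in every array, whereas Fcer1a of basophils and mast cells lay below the median in every array. Markers of other tissues were mixed. The mean levels of hepatocyte and skeletal muscle genes relative to control overlapped between the groups, at -1.59 to -1.59 and -0.40 to -0.39 in QDBS and -1.61 to -1.47 and -0.46 to -0.38 in YDBS. Those of 23 neural genes (-0.34 to -0.30 in QDBS, -0.43 to -0.37 in YDBS) and of 20 endothelial and vessel wall genes (-0.50 to -0.43 and -0.42 to -0.28) did not overlap, and the part of such cells in the results was not tested.

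60 genes were lower and 0 genes were higher in QDBS than in YDBS at the cut-offs of the study. These cut-offs ask for a FDR below 0.05 together with a log2 FC beyond 1 in size. The test was limma and not the t-test of the study's methods, which called 0 genes in either direction at these cut-offs. The 60 and 0 genes are 0.330% and 0% of the 18166 genes tested with limma in one fit of all 9 arrays. At the FDR alone, 81 genes were lower (0.446%) and 2 were higher (0.0110%). At an unadjusted p under 0.05 with the same size limit, 164 genes were lower and 11 higher. The arrays of both groups did not overlap for any of the 60, with gaps between the highest QDBS and the lowest YDBS array of 0.37 to 1.44 on the log2 scale. Over all genes, the 3 QDBS arrays lay below all YDBS arrays for 1572 genes (8.65%) and above them for 1779 (9.79%). The former had a median log2 FC of -0.41 and the latter of 0.28, while the median over all genes was 0.02. At an unadjusted p under 0.05 with no size limit, 1191 genes were lower and 721 higher. Beyond 0.5 on the log2 scale there were 839 lower and 242 higher genes, and beyond 1 there were 166 and 14.

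The count of 60 lay close to the threshold and depended on the arrays used, the normalization, the clusters tested and the test. It was 26 with quantile normalization, 9 over all deposited clusters and 0 with the t-test of the study's methods. The FDRs of the 60 genes ran from 0.00384 to 0.0488, and 36 of 60 were over 0.03. When only the 6 QDBS and YDBS arrays were fitted, 3 genes were called (Selp, Mtus1 and Tm6sf1), and the FDRs of all 60 lay between 0.0199 and 0.0957. Leaving out 1 control array gave 14 genes called lower for replicate 1, 97 for replicate 2, the array that stood apart, and 14 for replicate 3. Dropping a YDBS array gave 102, 3 and 34 for replicates 1, 2 and 3. Dropping QDBS replicate 1 left 1 gene, and dropping QDBS replicate 3 gave 87. With QDBS replicate 2 out, limma called 0, with 124 genes at an unadjusted p under 0.05 and the same size. The 60 were lower in QDBS wherever they had a value under the 22 alternatives, those leaving out 1 array included; Chn3 had none when the dimmest 40% of genes were left out.

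**Figure D1:**
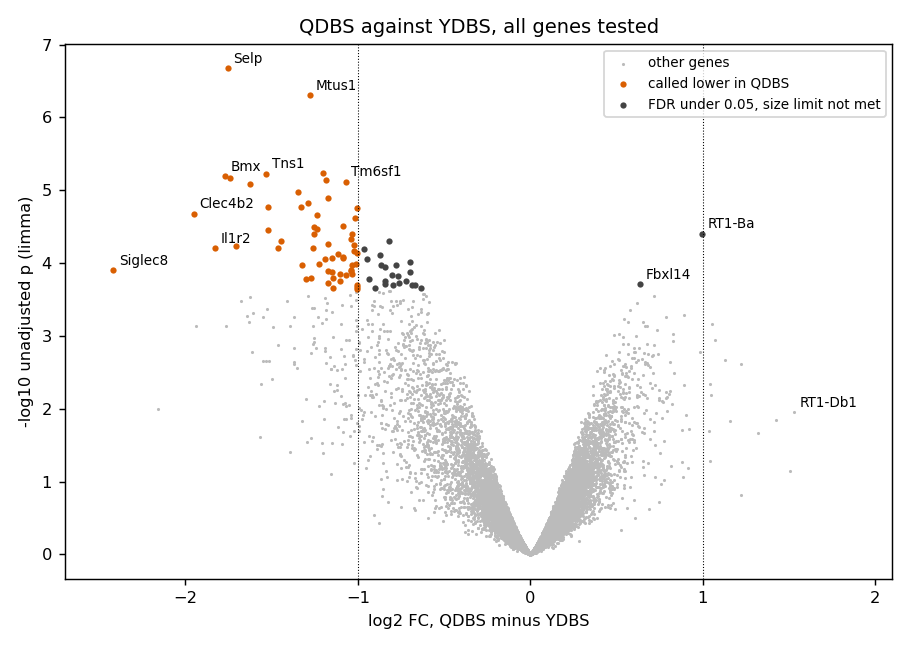
Each point is 1 of 18166 genes, with the log2 FC of QDBS minus YDBS on the x axis and the negative log10 of the unadjusted p of limma on the y axis; dotted lines mark a log2 FC of -1 and 1. The 60 genes called lower in QDBS lie at the upper left, while RT1-Ba and Fbxl14 are the 2 on the right that reached the FDR.

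Adhesion molecules held the gene called under the most alternatives, 20 of 22. Selp, the P-selectin that platelets and endothelium display to capture rolling leukocytes, had signals of 4.68, 4.64 and 4.502 in the 3 QDBS arrays and 6.12, 6.44 and 6.52 in the 3 YDBS arrays. Control arrays were at 4.62 to 5.07, so QDBS overlapped with control and YDBS lay above both. The FC was -3.37 (log2 FC -1.75, standard error 0.15, FDR = 0.00384). This call was lost without QDBS replicate 2, where the FDR was 0.0532, and with the test named in the study's methods. Tns1, the tensin that ties integrins to actin, had signals of 5.33, 5.48 and 6.05 in QDBS and 7.11, 7.27 and 7.07 in YDBS. Again the control range, 5.55 to 5.98, lay with QDBS and not with YDBS (FC -2.89, log2 FC -1.53, standard error 0.19, FDR = 0.0165). Of 19 platelet genes, all 19 had a negative log2 FC and 6 had all QDBS arrays below all YDBS arrays, beside 8.65% of all genes. Selp was the 1 platelet gene called, beside 0.330% of all genes. The mean level of the platelet list relative to control was -1.18 to -0.55 in QDBS and -0.57 to 0.18 in YDBS. That of endothelial and vessel wall genes was -0.50 to -0.43 and -0.42 to -0.28. Selp is itself a member of the platelet list, and the part of either list in the difference of Selp was not tested. Among 11 selectins and ligands, Cd44 had a log2 FC of -0.51 (FDR = 0.195) and St3gal4, a sialyltransferase, of -0.63 (FDR = 0.344), neither of which passed.

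The integrin-actin complex links the matrix to the cytoskeleton. Of 31 genes measured, 15 had all QDBS arrays below all YDBS arrays and 1 above, beside 8.65% and 9.79% of all genes, and the median log2 FC was -0.30. Tns1 was the 1 gene called of the 31, beside 0.330% of all genes. Actn1, an actin crosslinker, had a log2 FC of -0.81 (FDR = 0.118) and Zyx, the focal adhesion protein zyxin, of -0.68 (FDR = 0.133). Itga5, the integrin chain that binds fibronectin, reached the FDR but not the size limit (log2 FC -0.78, standard error 0.13, FDR = 0.0381). Other called genes of the membrane and cytoskeleton were Marcks, an actin-binding substrate of protein kinase C, and Cldn1, a claudin of tight junctions. Marcks had signals of 6.22, 6.27 and 6.79 in QDBS and 7.55, 7.998 and 7.78 in YDBS (log2 FC -1.35, standard error 0.18, FDR = 0.0194). For Cldn1 they were 4.14, 4.03 and 3.62 and 5.23, 5.59 and 4.95 (log2 FC -1.33, standard error 0.18, FDR = 0.0212), and here QDBS lay below the control range of 4.45 to 4.69. Mtus1, a microtubule-associated protein, was at 5.92, 5.84 and 6.11 in QDBS and 7.08, 7.31 and 7.32 in YDBS (log2 FC -1.28, standard error 0.12, FDR = 0.00452). Both groups were above the control range of 5.04 to 5.15, YDBS by more. The call of Mtus1 was lost without QDBS replicate 1 or QDBS replicate 2 and with the test of the study's methods. Cavin2 of caveolae, Agrn (agrin), Tuba1c, an alpha-tubulin, Rab31 and Sort1, which act in vesicle traffic, Tspan2, a tetraspanin, Sema6b, a semaphorin, Plekhb2 and Chn3 were called as well, with FCs from -2.50 for Chn3 to -2.06 for Rab31. Chn3 was the dimmest called gene, with signals of 2.59, 2.04 and 2.85 in QDBS and 4.11, 3.96 and 3.38 in YDBS.

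Receptors and sensors of innate immunity held the largest fold differences. Siglec8, a sialic acid-binding receptor that in humans marks eosinophils, had signals of 8.29, 6.39 and 7.64 in QDBS, 9.46, 9.82 and 10.29 in YDBS and 5.66 to 6.51 in control arrays. The FC was -5.34 (log2 FC -2.42, standard error 0.42, FDR = 0.0412), and the QDBS arrays spread over a range wider than that of any other of the 20 largest differences. The call of Siglec8 was lost when either control replicate 1 or 3, any 1 QDBS array, or YDBS replicate 2 or 3 was left out. Clec4b2, a C-type lectin of myeloid cells, was at 4.26, 3.81 and 4.55 in QDBS and 5.51, 6.26 and 6.71 in YDBS (log2 FC -1.95, standard error 0.27, FDR = 0.0236). Both were above the control range of 3.26 to 3.58. Of 28 myeloid lectins and paired receptors, 11 had all QDBS arrays below all YDBS arrays and 2 above, beside 8.65% and 9.79% of all genes, with a median log2 FC of -0.54. Siglec5, another receptor of sialic acid, had a log2 FC of -1.41 and did not pass (FDR = 0.0576).

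Ly96 and Lbp belong to the recognition of bacterial lipopolysaccharide. Ly96, or MD-2, the partner of Tlr4, had signals of 4.23, 3.60 and 4.66 in QDBS and 5.19, 5.65 and 5.56 in YDBS, with control arrays at 4.01 to 4.24 (log2 FC -1.30, standard error 0.23, FDR = 0.0451). Lbp, the binding protein that hands lipopolysaccharide to Cd14, was at 6.96, 7.24 and 7.69 in QDBS and 8.24, 8.91 and 9.13 in YDBS (log2 FC -1.46, standard error 0.23, FDR = 0.0327). In both genes, QDBS overlapped with control and YDBS was above it. Of 21 Toll-like receptor genes and adaptors, 4 had all QDBS arrays below YDBS and 2 above, beside 8.65% and 9.79% of all genes; Tlr2 and Tlr6 had log2 FCs of -0.93 and -0.96 and did not pass (FDR = 0.19 and 0.19). Nlrp12, a NOD-like receptor, was at 6.74, 6.41 and 7.13 in QDBS and 7.76, 8.24 and 8.61 in YDBS (log2 FC -1.45, standard error 0.22, FDR = 0.0322). Mefv, which encodes the inflammasome sensor pyrin, was at 6.06, 6.25 and 6.25 in QDBS and 7.07, 7.53 and 7.47 in YDBS, above a control range of 5.47 to 5.88 in both (log2 FC -1.17, standard error 0.16, FDR = 0.021).

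Of 24 genes of the interleukin-1 axis and inflammasome, 2 were called lower, both receptor chains, beside 0.330% of all genes. Il1r2, the decoy receptor that binds interleukin-1 without signalling, had signals of 6.60, 7.17 and 7.60 in QDBS and 8.31, 9.30 and 9.25 in YDBS, with control arrays at 6.30 to 6.70. The FC was -3.54 (log2 FC -1.83, standard error 0.29, FDR = 0.0327). Il1rap, the accessory chain of the signalling receptor, had a FC of -2.21 (log2 FC -1.15, standard error 0.20, FDR = 0.0449). Il1rn, the receptor antagonist, had a log2 FC of -1.09 and fell just short (FDR = 0.0605). The cytokine Il1b, named here for its role after its values were seen, had signals of 8.97, 8.33 and 9.65 in QDBS and 9.93, 10.43 and 10.35 in YDBS (log2 FC -1.25, FDR = 0.0985), and did not pass either. In all, 8 of the 24 genes had every QDBS array below every YDBS array and 3 above, beside 8.65% and 9.79% of all genes. The median log2 FC was -0.17.

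Of 21 chemoattractant and growth factor receptors of myeloid cells, 2 were called lower in QDBS, beside 0.330% of all genes. All QDBS arrays lay below all YDBS arrays for 9 of the 21 and above for 2, beside 8.65% and 9.79% of all genes. The median was -0.26. Of 20 chemokine receptors, 1 was called lower, 3 had QDBS below and 5 above, beside the same shares, and the median was 0.19. Cxcr2, the receptor of neutrophil-attracting chemokines, had signals of 9.04, 8.97 and 9.81 in QDBS, 10.25, 10.59 and 10.80 in YDBS and 8.24 to 8.61 in control arrays (log2 FC -1.27, standard error 0.23, FDR = 0.0449). QDBS replicate 3 came within 0.43 of the lowest YDBS array. Csf3r, the receptor of granulocyte colony-stimulating factor, was at 9.74, 9.71 and 10.18 in QDBS and 10.71, 10.95 and 11.07 in YDBS (log2 FC -1.03, standard error 0.16, FDR = 0.029). It was at 9.75 to 9.998 in control arrays, which QDBS overlapped. Ptafr, the receptor of platelet-activating factor, had a FC of -2.28 (FDR = 0.036) and Adgrg3, an adhesion G protein-coupled receptor of neutrophils, of -2.004 (FDR = 0.0488). The leukotriene receptor Ltb4r had a log2 FC of -1.05 with a FDR of 0.0544. Padi4, which citrullinates histones when neutrophils release chromatin, was at 5.27, 5.53 and 5.56 in QDBS and 6.13, 6.67 and 6.82 in YDBS (log2 FC -1.09, standard error 0.18, FDR = 0.036). Its QDBS values were below all control arrays, at 5.67 to 5.96, and its YDBS values above them. Ccl2, the chemokine that draws monocytes, showed the same order, with 5.06, 4.81 and 5.35 in QDBS, 6.31, 6.84 and 6.63 in YDBS and 5.82 to 6.54 in control (log2 FC -1.52, standard error 0.21, FDR = 0.0212), although its YDBS and control arrays overlapped.

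Of 30 neutrophil markers, 26 had a negative log2 FC, 14 had all QDBS arrays below all YDBS arrays and 0 had them above, beside 8.65% and 9.79% of all genes. 4 were called lower (Csf3r, Cxcr2, Il1r2 and Padi4), beside 0.330% of all genes, and the median was -0.63 (-0.87 to -0.34 over the alternatives). S100a8, a calcium-binding alarmin abundant in neutrophils and named here after its values were seen, was at 8.42, 7.76 and 9.04 in QDBS and 9.42, 9.98 and 10.40 in YDBS (log2 FC -1.52, FDR = 0.0621). The mean level of the list relative to control was -0.29 to 0.18 in QDBS and 0.30 to 0.88 in YDBS, so the groups did not overlap but QDBS replicate 3, the highest of its group, was close to YDBS replicate 1. Csf3r, Cxcr2, Il1r2 and Padi4 are themselves among the 60 genes, and the part of neutrophil markers in the other differences was not tested. Of 25 monocyte markers, 4 had QDBS below YDBS and 5 above, with a median of -0.01. Among them Clec10a, a lectin of antigen-presenting cells, had a log2 FC of 0.89 and the scavenger receptor Msr1 of -0.73 (FDR = 0.0681 and 0.132).

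**Figure D2:**
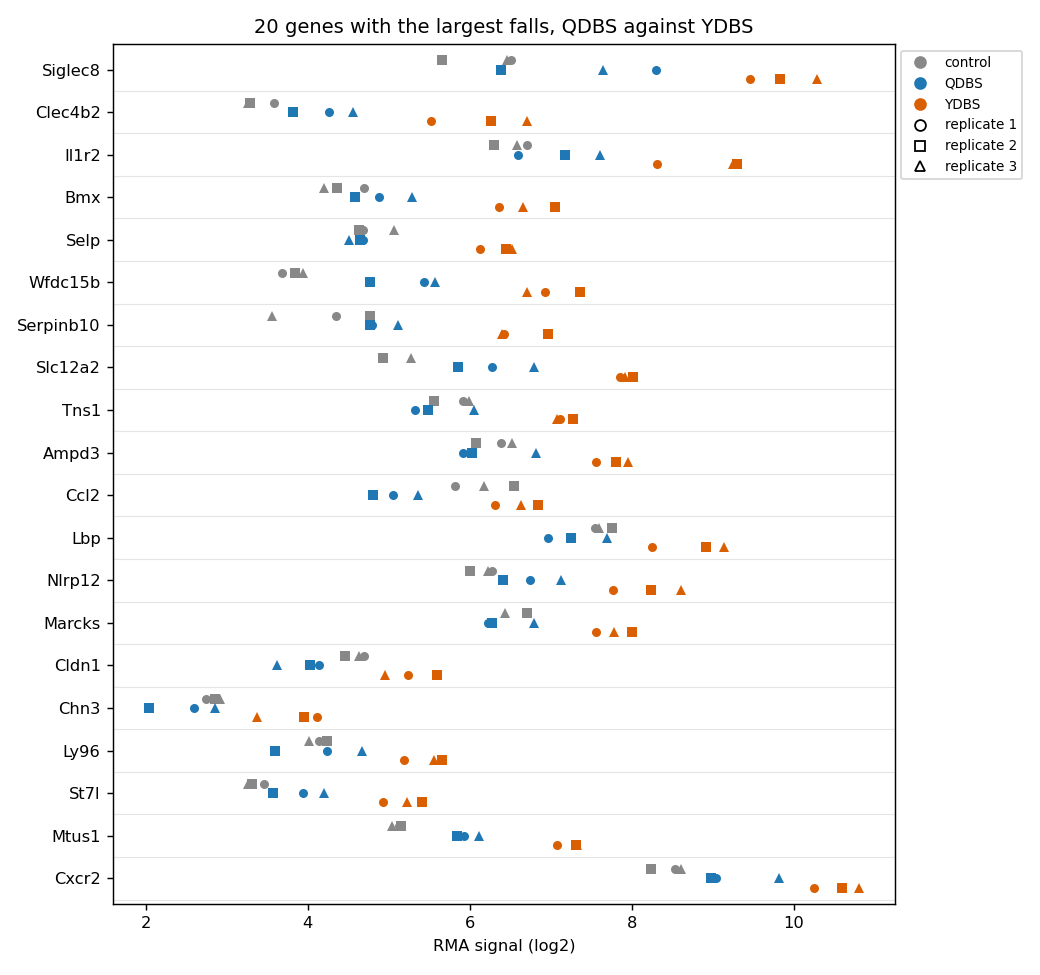
RMA signals (log2, x axis) of the 20 called genes with the largest falls, with 1 symbol for each of 9 arrays, coloured by group and shaped by replicate. In every gene the 3 QDBS arrays lie left of the 3 YDBS arrays, and QDBS replicate 3 is often the QDBS array nearest to them.

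Kinases and other signalling genes included Bmx, a cytoplasmic tyrosine kinase of the Tec family. Its signals were 4.88, 4.59 and 5.29 in QDBS and 6.35, 7.05 and 6.66 in YDBS, with control arrays at 4.20 to 4.70, a FC of -3.41 (log2 FC -1.77, standard error 0.22, FDR = 0.0165). The call was lost without QDBS replicate 1, QDBS replicate 2 or YDBS replicate 2, and in the fit of the 6 arrays (FDR = 0.0689). Bmx was the 1 called gene of 15 Tec and Src family kinases, beside 0.330% of all genes. Of the 15, 4 had QDBS below and 4 above YDBS, beside 8.65% and 9.79% of all genes. Fgr, a Src kinase of myeloid cells, had a log2 FC of -0.76 (FDR = 0.123). That of Zap70, a kinase of the T cell receptor, was 0.55 (FDR = 0.137). Plcb2, a phospholipase C of leukocytes, had a FC of -2.03, Rasgrp4, an activator of Ras in myeloid cells, of -2.02 and Nek10, a NIMA-related kinase, of -2.01. Mxd1, a Max partner that opposes Myc, had a FC of -2.01, and Id1, an inhibitor of helix-loop-helix factors, of -2.05. Id1 was at 5.86, 6.06 and 6.35 in QDBS, below the control range of 6.67 to 7.27, whereas YDBS, at 7.08, 7.20 and 7.08, overlapped with control. Rbm47, an RNA-binding protein, and Trim13, a ubiquitin ligase, had FCs of -2.39 and -2.22.

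When the 60 were sorted by role after the calls were seen, 12 were placed with transporters and enzymes of metabolism. The share of such genes among all genes tested was not determined. Slc12a2, the sodium-potassium-chloride cotransporter NKCC1, had signals of 6.27, 5.85 and 6.79 in QDBS and 7.85, 8.02 and 7.92 in YDBS, both above the control range of 4.93 to 5.27 (log2 FC -1.62, standard error 0.21, FDR = 0.0165). Ampd3, an AMP deaminase of erythrocytes and other blood cells, was at 5.91, 6.02 and 6.82 in QDBS and 7.55, 7.80 and 7.96 in YDBS (log2 FC -1.52, standard error 0.23, FDR = 0.0289). Slc2a3, the glucose transporter GLUT3, and Slc16a3, the lactate exporter MCT4, had FCs of -2.36 and -2.25 (FDR = 0.0236 and 0.0327). Both belong to a list of 26 genes of glucose uptake and glycolysis, of which no other was called. The share called lower over all genes was 0.330%. Of the 26, 8 had QDBS below YDBS and 2 above, beside 8.65% and 9.79% of all genes. Taldo1, an enzyme of the pentose phosphate pathway, had a log2 FC of -0.74 (FDR = 0.1). Slc16a3 signals were 7.23, 7.53 and 7.71 in QDBS, below the control range of 7.83 to 8.19, and 8.32, 8.95 and 8.71 in YDBS, above it. In lipid metabolism, Dgat2, which completes triglyceride synthesis, had a FC of -2.38, G0s2, an inhibitor of triglyceride breakdown, of -2.26, and the membrane-bound acyltransferases Mboat7 and Mboat1 of -2.30 and -2.26. Pltp, the phospholipid transfer protein of plasma lipoproteins, was at 7.14, 7.30 and 7.03 in QDBS and 8.59, 8.43 and 7.76 in YDBS, and was the 1 called gene with all YDBS arrays below control (8.68 to 8.9999). Gpt2, an alanine aminotransferase, Mgst1, a microsomal glutathione transferase, and Ggh, which trims folate polyglutamates, had FCs of -2.22, -2.05 and -2.01.

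Secreted proteins, proteases and their inhibitors were the last group. Wfdc15b, of the whey acidic protein family, had signals of 5.43, 4.77 and 5.56 in QDBS and 6.92, 7.35 and 6.71 in YDBS (log2 FC -1.74, standard error 0.22, FDR = 0.0165). Serpinb10, a serpin of hematopoietic cells, was at 4.79, 4.77 and 5.12 and 6.42, 6.96 and 6.40 (log2 FC -1.70, standard error 0.27, FDR = 0.0327). Both genes were above their control ranges, 3.69 to 3.94 and 3.56 to 4.76, in both groups, although QDBS replicate 2 was level with the highest control array for Serpinb10. Adam8, a leukocyte metalloprotease, had a FC of -2.17, Timp1, an inhibitor of matrix metalloproteases, of -2.15, Ece1, which activates endothelin, of -2.05, C1rl, a relative of complement C1r, of -2.13 and Lrg1, a leucine-rich glycoprotein of plasma, of -2.03. The others called were St7l, with signals of 3.94, 3.57 and 4.20 in QDBS and 4.93, 5.41 and 5.23 in YDBS (log2 FC -1.29, standard error 0.17, FDR = 0.0212), Tm6sf1 (FC -2.10, FDR = 0.0165), Prr29 (-2.02), Tpd52 (-2.01) and an uncharacterised gene. The call of Tm6sf1 was lost without QDBS replicate 1, QDBS replicate 2 or YDBS replicate 2.

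Against control, the 60 genes were mostly above it in YDBS. All YDBS arrays lay above all control arrays for 55 of 60, below for 1 and overlapping for 4. QDBS arrays lay above control for 16, below for 13 and overlapping for 31. Over all genes YDBS arrays were above control for 23.4%, and QDBS arrays above for 22.8% and below for 31.3%. The median signal of the 60 was 6.19 in control, 6.28 in QDBS and 7.41 in YDBS. These positions use the arrays that chose the genes and are a description. QDBS replicate 3 was the highest QDBS array for 51 of the 60, and YDBS replicate 1 the lowest YDBS array for 47.

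A further 21 genes were lower at the FDR without meeting the size limit, among them Gata1, the erythroid and megakaryocytic transcription factor, and Map2k3, a kinase upstream of p38. Gata1 had signals of 5.88, 5.82 and 5.73 in QDBS, 6.57, 6.81 and 6.32 in YDBS and 7.15 to 7.32 in control arrays (log2 FC -0.76, standard error 0.14, FDR = 0.0467), so both groups were below control and QDBS by more. Map2k3 had a log2 FC of -0.90 (FDR = 0.0488). It was the 1 gene at the FDR of 42 genes of MAP kinase cascades, beside 0.446% of all genes lower at the FDR. Of the 42, 10 had QDBS below YDBS and 6 above, beside 8.65% and 9.79% of all genes. P2rx1, an ATP-gated channel of platelets, and Cd63, a tetraspanin of granule membranes, had log2 FCs of -0.93 and -0.87 (FDR = 0.0451 and 0.0381). Of 29 erythroid genes, 13 had all QDBS arrays below YDBS and 0 above, against 8.65% and 9.79% of all genes. The median was -0.61, and Gata1 was the 1 gene at the FDR, beside 0.446% of all genes lower at the FDR. Ermap, an erythroid membrane protein, and Trim58, a ubiquitin ligase of maturing erythroblasts, had log2 FCs of -0.70 and -0.53 and did not pass (FDR = 0.1 and 0.189). The mean level of the erythroid list relative to control was -0.65 to -0.43 in QDBS and -0.30 to 0.43 in YDBS.

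In the other direction 2 genes reached the FDR, RT1-Ba and Fbxl14. RT1-Ba, the alpha chain of the MHC class II molecule RT1-B, had signals of 8.28, 8.28 and 7.86 in QDBS, 7.32, 7.02 and 7.10 in YDBS and 6.95 to 7.24 in control arrays. It was higher in QDBS at the FDR, with a log2 FC of 0.996 just under the size limit (standard error 0.15, FDR = 0.029). YDBS overlapped with control and QDBS lay above both. Fbxl14, a subunit of a ubiquitin ligase, was the other gene at the FDR, at 7.23, 7.23 and 7.10 in QDBS and 6.72, 6.499 and 6.43 in YDBS (log2 FC 0.64, standard error 0.12, FDR = 0.0467); QDBS lay above and YDBS below all control arrays.

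Of the 10 largest positive differences with no overlap between the groups, 5 were MHC class II chains. RT1-Da was at 9.98, 10.32 and 9.52 in QDBS and 8.72, 8.60 and 9.33 in YDBS (log2 FC 1.06, FDR = 0.0787). RT1-Db2 was at 7.02, 6.86 and 6.38 and 6.10, 5.65 and 5.31 (log2 FC 1.07, FDR = 0.0963). For RT1-Db1 the values were 9.40, 9.93 and 8.65 in QDBS and 8.59, 6.41 and 8.39 in YDBS, where 1 YDBS array was far below the others (log2 FC 1.53, FDR = 0.245). RT1-Bb was at 8.76, 9.01 and 9.03 in QDBS and 8.09, 8.36 and 7.25 in YDBS (log2 FC 1.04, FDR = 0.316). The beta chain genes RT1-Db1 and RT1-Db2 are close relatives whose probes may take up each other's RNA, and class II genes vary between rat haplotypes, so their levels are uncertain. Of 17 genes of class II presentation, 15 had a positive log2 FC, 9 had all QDBS arrays above all YDBS arrays and 0 had them below, beside 9.79% and 8.65% of all genes, with a median of 0.55 (0.37 to 0.64 over the alternatives). Ciita, the transactivator of class II genes, and Cd74, the invariant chain, were named for their role after their values were seen. Ciita was at 6.67, 7.40 and 6.37 in QDBS and 6.005, 5.52 and 5.96 in YDBS (log2 FC 0.98, FDR = 0.108), and Cd74 had a log2 FC of 0.55 (FDR = 0.162).

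The promoters of the 5 class II chains are shown because these genes were among the 10 largest positive differences, although RT1-Ba alone reached the FDR, and class II promoters carry a shared Y box, which binds the factor NF-Y and stands beside the X box through which Ciita is recruited. The stretches are RefSeq sequence of build GRCr8, 65 bases each, 5′ to 3′ on the strand of the gene and wholly upstream of its annotated start. Capitals mark the letters CTGATTGG, chosen after the values were seen.
RT1-Da: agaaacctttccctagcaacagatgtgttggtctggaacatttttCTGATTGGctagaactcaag
RT1-Ba: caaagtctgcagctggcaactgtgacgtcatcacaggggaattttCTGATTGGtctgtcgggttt
RT1-Bb: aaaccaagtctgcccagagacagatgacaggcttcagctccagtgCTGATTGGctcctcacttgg
RT1-Db1: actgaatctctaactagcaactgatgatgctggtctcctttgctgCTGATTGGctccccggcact
RT1-Db2: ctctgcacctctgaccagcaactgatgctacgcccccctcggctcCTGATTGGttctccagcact
They lie at chr20:4515318-4515382 (plus strand), chr20:4576966-4577030 (plus), chr20:4604163-4604227 (minus), chr20:4560226-4560290 (minus) and chr20:4541696-4541760 (minus), and the capitals begin 52, 46, 64, 83 and 120 bases before the annotated gene starts, in that order. On either strand, these letters were found within 250 bases upstream of 6 of the 15 class II presentation genes with a promoter sequence, of 2 of 46 genes called lower in QDBS and of 4.02% of 14564 genes. The match is a description of sequence and not a measured binding site.

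**Figure D3:**
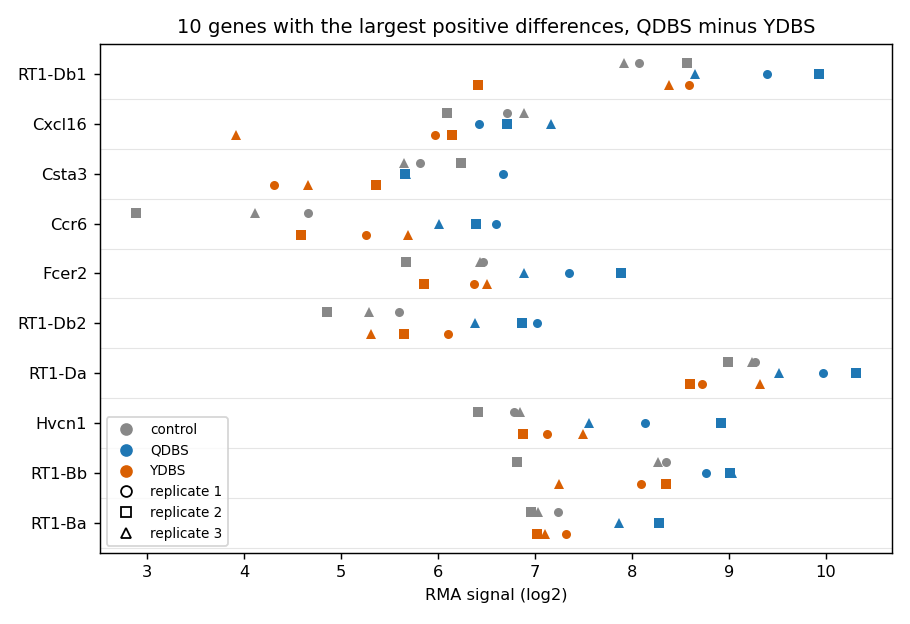
RMA signals (log2, x axis) of the 10 characterised genes with the largest positive differences among those with an unadjusted p under 0.05 and no overlap between QDBS and YDBS, 1 symbol per array. The smallest gap between the groups, for RT1-Db1, was 0.06, and RT1-Ba, at the bottom, alone reached the FDR.

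The other 5 of the 10 did not pass the FDR. Fcer2, the low-affinity IgE receptor CD23 of B cells, was at 7.35, 7.88 and 6.88 in QDBS and 6.37, 5.85 and 6.503 in YDBS (log2 FC 1.13, FDR = 0.12). Ccr6, a chemokine receptor of B cells and of some T cells, was at 6.60, 6.39 and 6.01 in QDBS and 5.26, 4.58 and 5.69 in YDBS (FDR = 0.279). Hvcn1, a proton channel abundant in B cells, Cxcl16, a chemokine that is also a scavenger receptor, and Csta3, a stefin, had log2 FCs of 1.04, 1.43 and 1.22 (FDR = 0.163, 0.272 and 0.123). That of Cxcl16 rested on YDBS replicate 3, at 3.91 against 5.97 and 6.14 in the other YDBS arrays.

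Most B cell and T cell markers had higher signals in QDBS arrays, and 0 of them reached the FDR. All 20 B cell markers had a positive log2 FC, 7 of them with all QDBS arrays above all YDBS arrays, beside 9.79% of all genes, and the median was 0.61. Pou2af1, a coactivator of B cell transcription, was at 6.59, 6.93 and 6.38 in QDBS and 5.95, 5.95 and 6.16 in YDBS (FDR = 0.108), and Btla, an inhibitory receptor, at 7.07, 7.08 and 6.86 and 6.34, 6.33 and 6.36 (FDR = 0.109). Of 24 T cell markers, 23 had a positive log2 FC, 17 had no overlap with QDBS above, and 0 with QDBS below. The median was 0.55. Cd3d, part of the CD3 signalling complex, was at 8.05, 7.90 and 7.91 in QDBS and 7.40, 6.97 and 7.13 in YDBS, with control arrays at 6.87 to 7.40 (log2 FC 0.79, FDR = 0.0696). Cd3g had a log2 FC of 0.82 and Cd27, a costimulatory receptor, of 0.68 (FDR = 0.0971 and 0.1). The mean level of the T cell list relative to control was 0.80 to 0.93 in QDBS and 0.21 to 0.49 in YDBS, without overlap, and that of the B cell list 0.89 to 1.75 and 0.46 to 1.01, with overlap. Of 22 natural killer cell markers, 1 had QDBS below YDBS and 2 above, with a median of -0.09.

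Cytosolic ribosomal proteins, which build the ribosome with its RNA, had a positive log2 FC in 50 of 54 genes, and 0 of them reached the FDR. Of the 54, 38 had all QDBS arrays above all YDBS arrays and 0 below, beside 9.79% and 8.65% of all genes, and the median log2 FC was 0.31. Rps28 was at 10.08, 10.08 and 9.95 in QDBS and 9.58, 9.34 and 9.58 in YDBS (log2 FC 0.54, FDR = 0.0734), and Rps15 and Rps3 had log2 FCs of 0.49 and 0.61 (FDR = 0.0905 and 0.123).

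**Figure D4:**
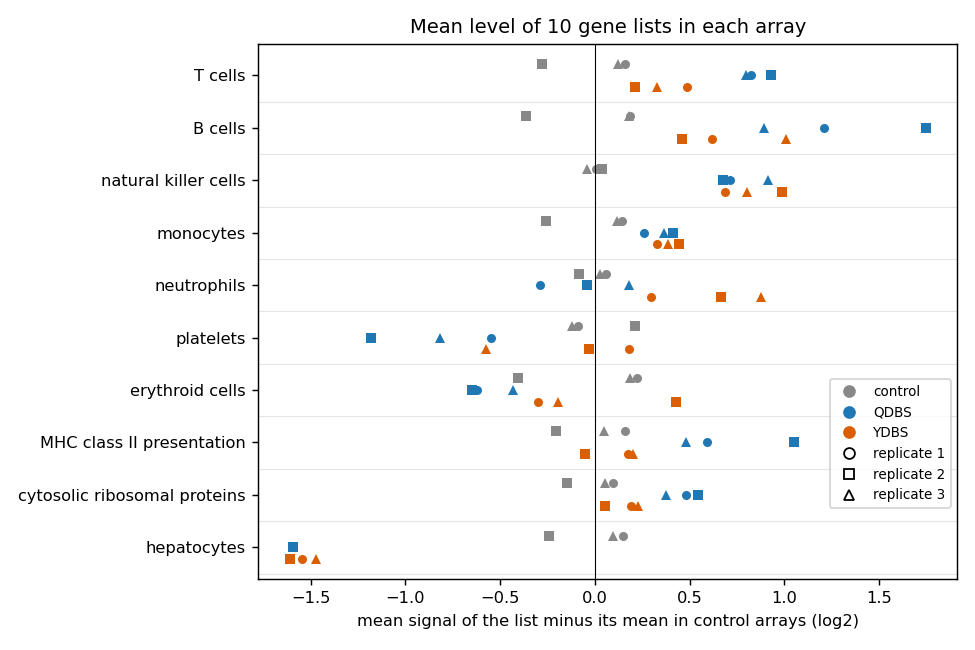
Mean signal of 10 gene lists in each of 9 arrays, as the difference from the mean of the control arrays (log2, x axis), coloured by group and shaped by replicate. T cell, class II and ribosomal protein lists lie higher in every QDBS than in every YDBS array, neutrophil and erythroid lists lower, and natural killer cell, monocyte and hepatocyte lists overlap.

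Genes known to respond to the injected hormones were examined because only YDBS rats received them. Of 24 genes that glucocorticoids induce, 8 had all QDBS arrays below all YDBS arrays and 4 above, beside 8.65% and 9.79% of all genes. The median was -0.09, and Il1r2 was the 1 gene called, beside 0.330% of all genes. Dusp1, a phosphatase of MAP kinases, was at 10.25, 10.24 and 10.78 in QDBS and 10.97, 11.26 and 10.99 in YDBS (log2 FC -0.65, FDR = 0.133). Rgs2, a regulator of G protein signalling, was at 6.62, 6.65 and 6.92 and 7.41, 7.70 and 7.55 (log2 FC -0.82, FDR = 0.144). Fkbp5, a co-chaperone of steroid receptors that glucocorticoids induce in many tissues, was named after its values were seen; 2 YDBS arrays, at 7.77 and 7.89, stood above QDBS, and YDBS replicate 3, at 6.56, lay within the QDBS range of 6.38 to 6.65 (log2 FC -0.93, FDR = 0.244). Nr3c1, the glucocorticoid receptor, likewise chosen for its role, did not differ beyond its spread, with 6.61, 6.64 and 6.94 in QDBS and 7.02, 6.93 and 6.80 in YDBS (log2 FC -0.18, 95% interval -0.73 to 0.36). Of 35 genes of adrenergic and cAMP signalling, 4 had QDBS below YDBS and 1 above, against the same shares of all genes. Grk5, a kinase that desensitises adrenergic receptors, was at 6.49, 6.15 and 6.82 in QDBS and 7.54, 7.65 and 7.02 in YDBS (log2 FC -0.92, FDR = 0.0845), and Fos, an early target of cAMP, had a log2 FC of -0.72 (FDR = 0.14). The study's labels place the last hormone dose on the day before the occlusion. In the 250 bases upstream of the start, the glucocorticoid half-site AGAACA was found on either strand in 5 of 46 genes called lower in QDBS with a promoter sequence, 10.9% against 13.4% of 14564 genes, and the full cAMP response element TGACGTCA in 0 of 46 against 2.23%. The cAMP half-site TGACG was found in 15.2% against 22.4% and the AP-1 site TGANTCA in 8.70% against 5.64%. An ETS site, GAGGAAG, was found in 8.70% against 10.6% and the E-box CACGTG in 4.35% against 6.86%. With 46 promoters and such short motifs, these counts are a description, and hormone action on these genes was not tested.

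**Figure D5:**
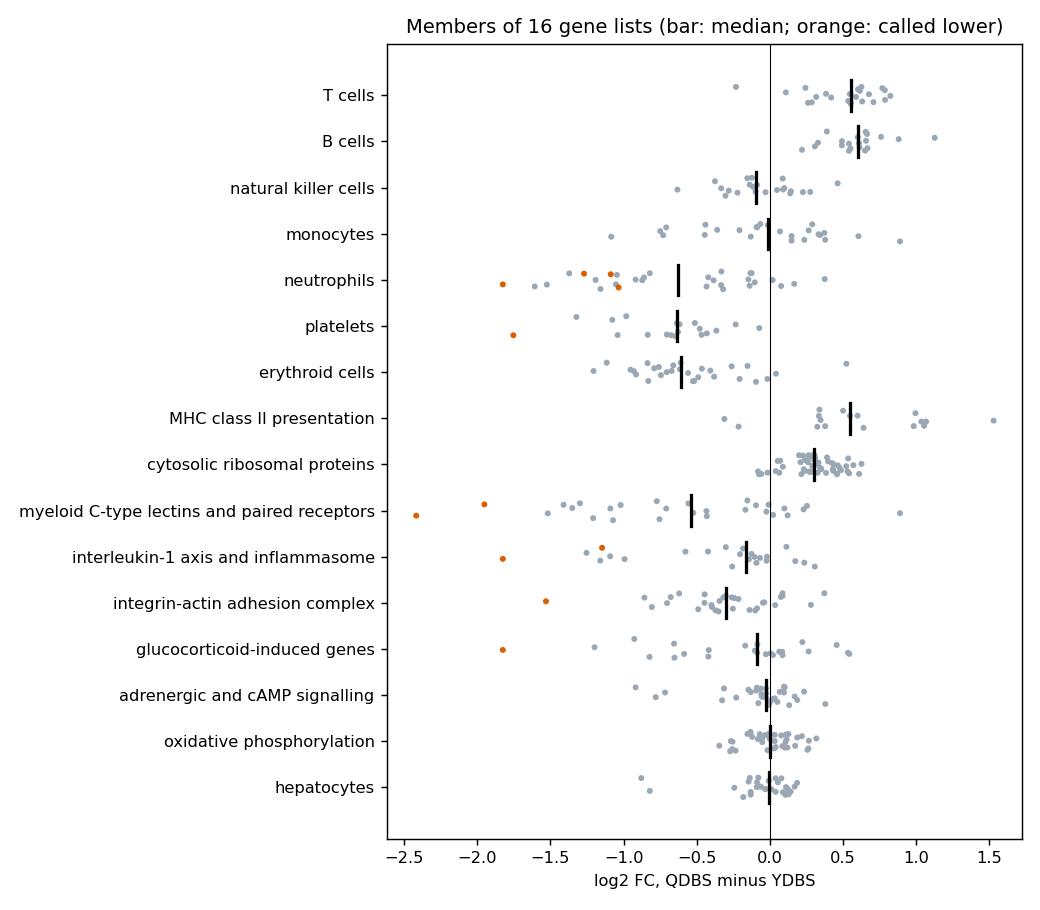
Log2 FC of QDBS minus YDBS (x axis) for the members of 16 gene lists, 1 point per gene, with a black bar at the median and called genes in orange. Neutrophil, platelet, erythroid and myeloid lectin medians lie below -0.5, T cell, B cell and class II medians above 0.5, and those of oxidative phosphorylation and hepatocyte genes at 0.

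Lists of oxidative phosphorylation, interferon response and NF-kB genes overlapped between the groups in their mean level per array. The median log2 FC was -0.0003 for 41 genes of oxidative phosphorylation (4 with QDBS below, 3 above, against 8.65% and 9.79% of all genes), -0.10 for 38 interferon response genes (4 and 3) and -0.03 for 23 NF-kB genes (1 and 3). Cox7b, a subunit of cytochrome oxidase, had a log2 FC of -0.34 (FDR = 0.504). Within the interferon list single genes went both ways: Oas1k, an oligoadenylate synthetase, was at 7.23, 7.23 and 8.25 in QDBS and 8.49, 9.09 and 9.60 in YDBS (log2 FC -1.49, FDR = 0.0805), while Gbp5, a guanylate-binding protein, had a log2 FC of 0.57 (FDR = 0.18). Of 28 antioxidant genes 10 had QDBS below and 1 above, and the mean level of the list relative to control did not overlap (-0.20 to -0.04 in QDBS, 0.06 to 0.28 in YDBS), with Sod2, the mitochondrial superoxide dismutase, at a log2 FC of -0.69 (FDR = 0.077). Of 19 clock genes, 7 had a negative and 12 a positive log2 FC, with a median of 0.03. QDBS arrays lay below all YDBS arrays for 3 and above for 2, beside 8.65% and 9.79% of all genes. Nfil3, a repressor of the clock that also acts in leukocytes, had a log2 FC of -0.81 and Per2 of -0.65 (FDR = 0.0576 and 0.125). Bmal1, an activator of the clock, had a log2 FC of 0.27 (FDR = 0.454).

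Hub genes of the network analysis and genes remeasured by PCR were compared directly as well. Of this list, 14 genes had a value and 0 reached the FDR between QDBS and YDBS. Acap2, which acts on the GTPase Arf6, came nearest, with 6.80, 6.55 and 7.24 in QDBS and 7.53, 7.68 and 7.57 in YDBS (log2 FC -0.73, FDR = 0.0935). Ccr1, a chemokine receptor of myeloid cells, was at 7.63, 6.97 and 8.73 in QDBS and 8.92, 9.38 and 9.41 in YDBS, and QDBS replicate 3 was far above the other QDBS arrays (log2 FC -1.46, FDR = 0.1). Nfkb1, the p105 subunit of NF-kB, was at 8.24, 8.56 and 8.23 in QDBS and 8.13, 8.07 and 8.13 in YDBS, with a log2 FC of 0.23 and a 95% interval of -0.20 to 0.66. Egfr, the receptor of epidermal growth factor, had a log2 FC of 0.07 and an interval of -0.23 to 0.36. Both intervals exclude a difference of more than 1 on the log2 scale in either direction.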

How the data were processed

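Blood RNA of 9 rats had been hybridised by the authors to Affymetrix Rat Gene 2.0 ST arrays, 3 rats each in the control, QDBS and YDBS groups. Per the labels, the deposited log2 values were computed with RMA in Affymetrix Expression Console 1.1 (background correction, quantile normalization, probe summary), and they were used as deposited. Arrays have no depth; precision is limited by their number. Of 30347 clusters, 18511 had 1 platform symbol, 575 had several and 11261 were unlisted; 291 genes with several clusters were represented by the brightest.

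Groups came from the labels. QDBS was tested against YDBS with limma 3.58.1 (R 4.3.3) by fitting 3 group means to all 9 arrays (6 residual degrees of freedom), so control arrays shared in the estimate of the spread. Calls required a FDR (Benjamini-Hochberg, over 18166 genes) below 0.05 and a log2 FC beyond 1 in size, as in the study. FC is signed, with falls negative. In simulations over 18166 genes in 5 runs, values were drawn independently for each gene and array, with the spread of each gene pooled over the groups. Of 100 genes changed by 1.2 on the log2 scale 76 to 86 were called, and of 100 changed by 2 there were 94 to 99, with 0 to 2 false calls. Genes that vary together, unequal spread between groups and an array that stands apart, such as control replicate 2, were not simulated. The number of false calls therefore holds for the simulated setting and not for these data.

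45 gene lists (1118 of 1278 entries matched) and the rule for named genes were written with earlier results of these data known. The text names each called gene with a characterised symbol, gives array values for the 20 largest differences, names the 10 largest positive differences without overlap, the study's hub or remeasured genes and up to 3 members of a list by smallest p; others are marked as chosen later. Lists share genes. Motifs were searched on both strands in 250 bases upstream of 14564 genes matched by symbol to RefSeq promoters (GRCr8), 46 of 60 called genes among them. Same-numbered QDBS and YDBS arrays are different rats.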

Additional observations from a re-analysis of the deposited data

How the results depend on the processing

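22 alternatives were run. The count of 60 genes lower in QDBS was 26 with quantile normalization, 101 with array weights, 0 with the methods' t-test (119 at an unadjusted p under 0.05 and the same size), 9 over all deposited clusters, 3 with the 6 arrays alone, and 0 to 102 when 1 array was left out; the 6-array fit had about the same standard errors (median 0.19 against 0.18 over the 60 genes) and fewer residual degrees of freedom (4 against 6). Of the 60, 26 were called again with quantile normalization, 49 with array weights, 60 without control replicate 2 and 52 without QDBS replicate 3. The count of 0 genes higher was 1 with 75th percentile centring, 2 with quantile normalization, cyclic loess or array weights, and 0 to 3 when 1 array was left out.

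At the FDR alone, the 81 lower genes were 35 with quantile normalization, 48 with a trended and robust variance, 405 with array weights, 0 with the methods' t-test, 135 without the dimmest 40% of genes, 9 over all clusters, 3 with 6 arrays and 0 to 239 when 1 array was left out. The 2 higher genes were 1 with median centring or a trended and robust variance, 6 with quantile normalization, 11 with cyclic loess, 123 with array weights, 6 without dim genes, 0 over all clusters, with 6 arrays or with the methods' t-test, and 0 to 52 when 1 array was left out. Replicate numbers do not pair rats: with the replicate block, 44 genes were lower at both criteria (41 of the 60), 47 lower and 1 higher at the FDR, and deviations of same-numbered QDBS and YDBS arrays correlated at -0.12 to 0.20, those of other numbers at -0.13 to 0.22.

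Signs turned only among hub and remeasured genes near 0. Sh3kbp1 was -0.00090 with median centring, and -0.0683 to 0.1404 when 1 array was left out. Golim4 was -0.0093 with cyclic loess and -0.0644 to 0.0857 when 1 was left out, where Cyp2e1 was -0.0185 to 0.1544, Ttr -0.0867 to 0.1206 and Egfr -0.0078 to 0.1483. The medians of 17 of 45 lists turned sign somewhere, among them natural killer cells, monocytes, hepatocytes, oxidative phosphorylation and interferon response; those of T cells, B cells, class II presentation, ribosomal proteins, neutrophils, platelets and erythroid cells did not. Causes of these changes were not tested.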

Other observations

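Of 26 genes of eicosanoid synthesis and receptors, 20 had a negative and 6 a positive log2 FC, and 0 reached the FDR. Of the 26, 8 had all QDBS arrays below all YDBS arrays and 0 above, beside 8.65% and 9.79% of all genes. The median log2 FC was -0.09. Pla2g4a, the cytosolic phospholipase that frees arachidonic acid, had a log2 FC of -0.50 (FDR = 0.108), Alox5, the 5-lipoxygenase, of -1.03 (FDR = 0.112) and Alox5ap, its activating protein, of -0.90 (FDR = 0.114).

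Regulators of cell death went both ways, and 0 of 26 apoptosis genes reached the FDR. Of the 26, 3 had all QDBS arrays below all YDBS arrays and 2 above, near the 8.65% and 9.79% of all genes, and the median log2 FC was -0.03. Pmaip1, the BH3-only protein NOXA, had a log2 FC of -1.23 (FDR = 0.0696) and Bcl2l1, which opposes apoptosis, of -0.86 (FDR = 0.0787), while Bmf, another BH3-only protein, had one of 0.44 (FDR = 0.180).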
